A study of Mus musculus with 15 samples.

Results

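The 10 genes described here, Atf4, Atf5, Ddit3, Trib3, Asns, Chac1, Hspa5, Xbp1, Herpud1 and Psat1, belong to the unfolded protein response of the endoplasmic reticulum (ER) and to the integrated stress response. They were taken by name from a table of estimated transcript counts summed to 35546 genes, and all 10 were present and passed the filter on low counts. RNA-seq was run on total RNA from livers of mice kept on a high-fat diet for 8 weeks, in 15 libraries of 3 genotypes. The 5 KO libraries came from Txnip knockout livers, the 5 C247S KI libraries from livers with the C247S mutation of TXNIP, and the 5 WT libraries from wild-type livers, and all 3 genotypes received the diet. The series addresses whether the covalent bond between thioredoxin and TXNIP, an arrestin-like protein that binds thioredoxin through a cysteine, is needed for diet-induced insulin resistance of the liver. The labels do not give sex, age, time of collection, the cells that lost Txnip or whether each library is a separate animal, so p-values here measure the spread between libraries, which may be technical. The sample titles of KO open with numbers from another range than those of C247S KI and WT. What these numbers stand for is not given, and if they mark a separate cohort of animals, it and the KO genotype cannot be told apart.

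Proteins that misfold in the ER activate the sensors IRE1, PERK and ATF6. PERK, like the other kinases of eIF2α that respond to amino acid shortage, heme shortage or viral RNA, slows general translation while the mRNA of ATF4 is translated more, and ATF4 then drives genes of amino acid supply and redox balance. IRE1 splices Xbp1 mRNA in the cytoplasm, and ATF6 and spliced XBP1 raise chaperones and degradation factors, which hepatocytes need for their heavy secretion. Since ATF4 is set largely by translation and XBP1 by splicing, mRNA levels of these genes report their transcripts and not the activity of the pathway.

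The promoters of 5 of the 10 genes held a match to a known response element. The stretches with a match are shown because they carry letters of motifs known for ATF4, ATF6 or XBP1. Whether these matches are bound or act in liver was not tested. RefSeq promoters (build GRCm38.p6, 300 bases each, 250 before to 50 after the annotated start) were found for all 10 genes, with 12 entries in all. Both strands were searched for the CARE motif TGATGNAA bound by ATF4 with C/EBP partners, for the ERSE (CCAAT, 9 bases, CCACG), for the ERSE-II (ATTGG, 1 base, CCACG) and for the UPRE TGACGTGG. Capitals mark the match, and each line reads 5′ to 3′ along the gene's own strand.
Trib3, CARE on the opposite strand, chr2:152344019-152344066, minus strand: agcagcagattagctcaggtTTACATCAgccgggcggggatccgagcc
Asns, CARE, chr6:7693205-7693252, minus strand: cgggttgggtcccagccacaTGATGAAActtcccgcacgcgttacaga
Chac1, CARE on the opposite strand, chr2:119351029-119351076, plus strand: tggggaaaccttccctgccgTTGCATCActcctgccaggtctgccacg
Herpud1, CARE on the opposite strand, chr8:94386297-94386344, plus strand: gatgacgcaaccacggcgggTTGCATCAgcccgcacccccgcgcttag
Herpud1, ERSE-II, chr8:94386357-94386407, plus strand: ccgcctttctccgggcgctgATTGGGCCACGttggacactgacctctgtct
Hspa5, ERSE, chr2:34772005-34772063, plus strand: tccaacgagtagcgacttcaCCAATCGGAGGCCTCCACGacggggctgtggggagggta

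Taking the annotated start as 0, the Trib3 match began at 14, while that of Asns began at -23, that of Hspa5 at -65 and that of Chac1 at -193. In Herpud1 the CARE began at -112 and the ERSE-II at -52. RefSeq and GENCODE place some of these starts differently: by the GENCODE loci given below the Trib3 match lies before the gene, and those of Asns and Hspa5 lie inside it. The CARE was held by 4 members and by 3.97% of all 32851 promoters searched, the ERSE by 0.119%, the ERSE-II by 0.0365%, and the UPRE, found in no member, by 0.676%. The windows of Atf4, Atf5, Ddit3, Xbp1 and Psat1 held none of these letters, which says nothing about sites elsewhere.

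Depth ran from 18047577 to 23379940 estimated counts per library, and 13916 genes passed the filter and were tested. Txnip itself averaged 99.0 ± 24.9 CPM (counts scaled to library size) in KO, 192 ± 65.7 in C247S KI and 222 ± 56.2 in WT (SD, n = 5 each), so its transcript was lower in KO than in WT (log2 -1.17, edgeR adjusted p = 0.00886) but still measured. Albumin, transthyretin and the other 7 of 9 hepatocyte markers were all detected in this liver RNA. Levels below are CPM scaled by TMM factors, and fold changes and adjusted p-values are from edgeR's quasi-likelihood test with Benjamini-Hochberg adjustment over all genes tested, at a threshold of 0.05.

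Per unit of length, Herpud1 was the most abundant transcript of the set, with a mean of 511 TPM (a length-corrected share of all transcripts) over the 15 libraries. Atf5 (258 TPM) and Hspa5 (255 TPM) followed, and their ranges of 202 to 388 and 209 to 348 TPM overlapped almost fully. Xbp1 averaged 106 TPM and Atf4 57.4 TPM. Ddit3 (12.6 TPM) and Chac1 (11.4 TPM) could not be ordered, with ranges of 7.02 to 19.0 and 4.84 to 19.1 TPM. Trib3 at 6.47 TPM and Asns at 3.36 TPM also overlapped, and Psat1 was lowest at 0.888 TPM with a range of 0.231 to 1.30. TPM was computed from annotated lengths without TMM scaling and serves only to set genes side by side.

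Of the 10 genes, 1 differed between genotypes past the threshold. Trib3 was higher in KO than in C247S KI, a comparison in which 10.3% of all genes tested passed. No member passed in KO against WT, where 6.75% of all genes did, or in C247S KI against WT, where 0.0862% did. Asns had the largest point difference and the largest spread, and all log2 differences of Atf4, Hspa5 and Atf5 lay between -0.13 and 0.12.

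**Figure D1:**
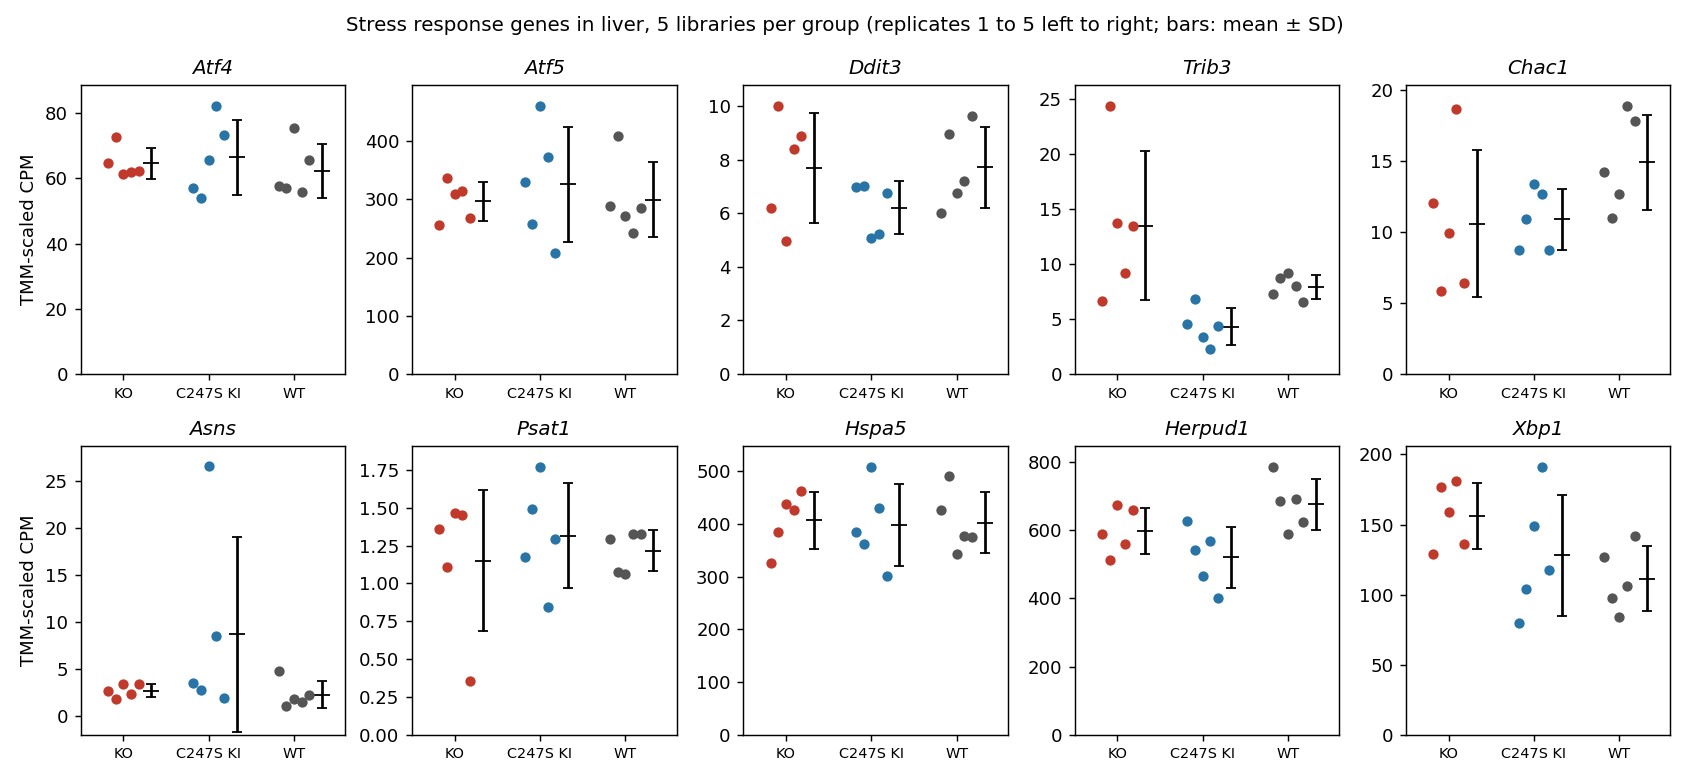
TMM-scaled CPM of the 10 genes in each library, with KO (red), C247S KI (blue) and WT (grey) from left to right, replicates 1 to 5 in order and the mean ± SD (n = 5) as a black bar. Trib3 is highest in KO 2 at 24.3 CPM, Asns stands out in C247S KI 3 at 26.6 CPM, where the SD exceeds the mean so that the bar runs below 0, and Psat1 is lowest in KO 5 at 0.356 CPM.

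Atf4 (ENSMUSG00000042406, GRCm38 chr15:80255184-80257541, plus strand) encodes the bZIP factor at the centre of the integrated stress response. It had 64.6, 72.7, 61.4, 61.9 and 62.3 CPM in KO 1 to 5, 57.1, 54.0, 65.6, 82.0 and 73.4 CPM in C247S KI 1 to 5, and 57.6, 56.9, 75.3, 55.9 and 65.7 CPM in WT 1 to 5. The 3 groups overlapped, and the KO libraries lay within the range of both other groups. The log2 difference was 0.05 (SE 0.12, edgeR adjusted p = 0.839) in KO against WT, 0.09 (SE 0.12, adjusted p = 0.820) in C247S KI against WT and -0.04 (SE 0.12, adjusted p = 0.860) in KO against C247S KI.

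Atf5 (ENSMUSG00000038539, chr7:44812256-44816658, minus strand), a relative of Atf4 linked to mitochondrial stress, averaged 296 ± 34.0 CPM in KO, 325 ± 98.2 in C247S KI and 300 ± 63.7 in WT (SD, n = 5). C247S KI 3 at 459 CPM was its highest library and C247S KI 5 at 207 CPM its lowest. The log2 difference of Atf5 was -0.01 (SE 0.19, edgeR adjusted p = 0.974) in KO against WT, 0.12 (adjusted p = 0.849) in C247S KI against WT and -0.13 (adjusted p = 0.685) in KO against C247S KI.

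Ddit3 (ENSMUSG00000025408, chr10:127290774-127296288, plus strand) encodes CHOP, a factor of terminal ER stress. It had 6.20, 9.99, 4.96, 8.40 and 8.89 CPM in KO, 6.97, 7.03, 5.08, 5.23 and 6.77 CPM in C247S KI, and 6.0, 8.94, 6.76, 7.22 and 9.62 CPM in WT. The C247S KI libraries all lay in the lower part of the range spanned by KO and WT. The log2 difference of Ddit3 was -0.31 (SE 0.19, edgeR adjusted p = 0.607) in C247S KI against WT, 0.30 (SE 0.19, adjusted p = 0.318) in KO against C247S KI and -0.01 (SE 0.19, adjusted p = 0.990) in KO against WT.

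Trib3 (ENSMUSG00000032715, chr2:152337422-152344032, minus strand), whose promoter stretch is shown above, encodes a pseudokinase induced by ATF4 and CHOP that is known to bind the insulin signalling kinase AKT in liver. It had 6.60, 24.3, 13.8, 9.22 and 13.5 CPM in KO 1 to 5, 4.57, 6.84, 3.36, 2.30 and 4.39 CPM in C247S KI 1 to 5, and 7.25, 8.74, 9.22, 7.97 and 6.51 CPM in WT 1 to 5. KO 1, the lowest KO library, lay just under C247S KI 2, the highest C247S KI library, and the other 4 KO libraries were above all C247S KI libraries. Between C247S KI and WT the overlap was likewise a single library, C247S KI 2, which exceeded WT 5.

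Trib3 was higher in KO than in C247S KI by 1.64 on the log2 scale (SE 0.30, edgeR adjusted p = 0.00275). Leaving out each library in turn kept the call, with adjusted p between 0.00112 and 0.00835, and without KO 2, the highest library, the difference was 1.33 (SE 0.26). The KO values lay above the WT mean of 7.94 CPM in 4 of 5 libraries, and the log2 difference from WT was 0.76 (SE 0.29, edgeR adjusted p = 0.122). The C247S KI difference from WT was -0.88 (SE 0.30, edgeR adjusted p = 0.372). Neither difference from WT passed by itself, and these 2 comparisons share the WT libraries.

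The Trib3 difference was also set beside the daily clock genes of these libraries. A clock index, the mean log2 CPM of Dbp, Tef, Nr1d1, Nr1d2 and Ciart minus that of Arntl, Clock and Nfil3, ran from 2.85 to 3.75 in KO, from 0.616 to 2.17 in C247S KI and from 1.83 to 2.99 in WT, without overlap between KO and C247S KI. With this index in the fit the Trib3 difference of KO and C247S KI was 0.50 (SE 0.47, edgeR adjusted p = 0.801), and that of KO and WT was -0.02 (SE 0.36, adjusted p = 0.989). Between KO and C247S KI the index separates all libraries, so there a clock phase and the genotype cannot be told apart. The WT libraries lay within the range of KO (WT 1 and WT 2) or of C247S KI (WT 3, WT 4 and WT 5). Of the KO libraries only KO 1, at 2.85, lay within the WT range. The index therefore largely follows the genotype between KO and WT too, and the 2 are hard to tell apart there.

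Within genotypes, with each group's mean removed, Trib3 and the index had a Pearson r of 0.632 over 15 libraries (permutation p = 0.0085, adjusted p = 0.0853 over 10 members) and a Spearman rho of 0.493 (permutation p = 0.0601, adjusted p = 0.224). Without the 2 libraries farthest from the median index r was 0.621. No member passed the adjustment, and this relation was computed after the values were seen. Atf4 had the strongest negative r, -0.639 (permutation p = 0.0294, adjusted p = 0.147) with rho -0.586 (permutation p = 0.0467, adjusted p = 0.224), and its r was -0.317 without the 2 farthest libraries.

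**Figure D2:**
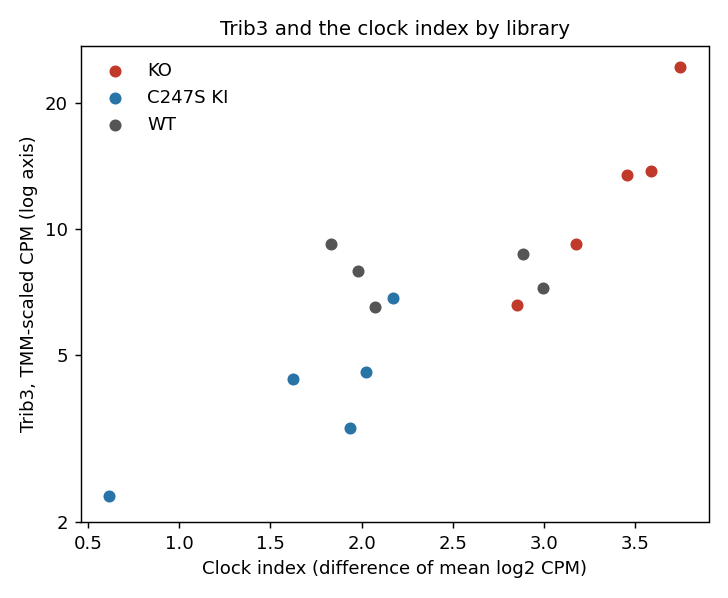
Trib3 in TMM-scaled CPM (vertical, log axis) against the clock index (horizontal, difference of mean log2 CPM) in the 15 libraries, with KO in red, C247S KI in blue and WT in grey. KO libraries sit at the right with an index of at least 2.85, C247S KI 4 is lowest on both axes at 0.616 and 2.30 CPM, and the WT libraries run from 1.83 to 2.99 in the index and from 6.51 to 9.22 CPM in Trib3.

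Chac1 (ENSMUSG00000027313, chr2:119351229-119354381, plus strand) encodes a glutathione-degrading enzyme that is a classical ATF4 target. It had 12.1, 5.87, 9.91, 18.6 and 6.40 CPM in KO, 8.75, 10.9, 13.3, 12.6 and 8.69 CPM in C247S KI, and 14.2, 10.9, 12.6, 18.8 and 17.8 CPM in WT. KO 4 lay beside the highest WT libraries, while KO 2, KO 3 and KO 5 were below every WT library. The log2 difference was -0.49 (SE 0.26, edgeR adjusted p = 0.268) in KO against WT, -0.45 (SE 0.26, adjusted p = 0.579) in C247S KI against WT and -0.04 (SE 0.26, adjusted p = 0.940) in KO against C247S KI.

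Asns (ENSMUSG00000029752, chr6:7675169-7693254, minus strand), the asparagine synthetase gene induced by ATF4 on amino acid shortage, had 2.62, 1.76, 3.40, 2.33 and 3.40 CPM in KO 1 to 5. C247S KI 1 to 5 had 3.53, 2.79, 26.6, 8.49 and 1.96 CPM, and WT 1 to 5 had 4.81, 1.12, 1.79, 1.5 and 2.19 CPM. C247S KI 3 and C247S KI 4 were above every other library, and the other 3 C247S KI libraries lay among KO and WT. The log2 difference was 1.92 (SE 0.60, edgeR adjusted p = 0.327) in C247S KI against WT and 0.88 without C247S KI 3 (adjusted p = 0.402). In KO against C247S KI it was -1.67 (SE 0.59, edgeR adjusted p = 0.0798), -0.63 without C247S KI 3 (adjusted p = 0.330) and -1.91 without C247S KI 5, where alone it passed (adjusted p = 0.0480). In KO against WT it was 0.25 (SE 0.61, edgeR adjusted p = 0.842).

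Psat1 (ENSMUSG00000024640, chr19:15904678-15947337, minus strand), an enzyme of serine synthesis, was near the low end of what was tested, with 7 to 32 estimated counts per library. It averaged 1.15 ± 0.466 CPM in KO, 1.31 ± 0.346 in C247S KI and 1.22 ± 0.135 in WT (SD, n = 5). Its log2 differences were -0.08 (SE 0.31, edgeR adjusted p = 0.910) in KO against WT, 0.11 (SE 0.30, adjusted p = 0.917) in C247S KI against WT and -0.19 (SE 0.31, adjusted p = 0.723) in KO against C247S KI.

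Hspa5 (ENSMUSG00000026864, chr2:34771970-34777547, plus strand) encodes BiP, the main ER chaperone of the HSP70 family and the usual readout of ATF6. It had 325, 384, 438, 427 and 463 CPM in KO, 385, 363, 508, 431 and 300 CPM in C247S KI, and 426, 491, 344, 377 and 376 CPM in WT. The groups overlapped throughout and their means of 407, 397 and 402 CPM lay within their SDs. The log2 difference was 0.02 in KO against WT, -0.02 in C247S KI against WT and 0.04 in KO against C247S KI, each with an SE of 0.15 (edgeR adjusted p = 0.963, 0.975 and 0.903).

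Herpud1 (ENSMUSG00000031770, chr8:94386438-94395377, plus strand) encodes a membrane protein of ER-associated degradation and holds both a CARE and an ERSE-II in its promoter window. It had 589, 511, 672, 560 and 659 CPM in KO, 627, 541, 465, 567 and 400 CPM in C247S KI, and 784, 685, 590, 692 and 624 CPM in WT. Only C247S KI 1 among the C247S KI libraries reached the WT range. Its log2 difference in C247S KI against WT was -0.38 (SE 0.14, edgeR adjusted p = 0.407), in KO against WT -0.17 (SE 0.14, adjusted p = 0.484) and in KO against C247S KI 0.20 (SE 0.14, adjusted p = 0.358).

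Xbp1 (ENSMUSG00000020484, chr11:5520659-5525893, plus strand), the substrate of IRE1, had 129, 177, 159, 181 and 136 CPM in KO, 79.4, 104, 149, 191 and 118 CPM in C247S KI, and 127, 97.7, 84.1, 107 and 142 CPM in WT. All KO libraries exceeded the lowest 4 WT libraries, and WT 5 lay inside the KO range. The log2 difference was 0.49 (SE 0.20, edgeR adjusted p = 0.150) in KO against WT, 0.20 (SE 0.20, adjusted p = 0.755) in C247S KI against WT and 0.29 (SE 0.20, adjusted p = 0.374) in KO against C247S KI.

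The annotated Xbp1 transcripts did not include the IRE1-spliced form, so splicing was not measured. Xbp1-201, with 267 coding codons and the unspliced reading frame, took 91.8 ± 3.45% of the gene's estimated counts in KO, 87.3 ± 5.27% in C247S KI and 91.4 ± 4.85% in WT (SD, n = 5). Over 9 exact two-sided permutation tests of 3 coding transcripts the lowest p was 0.151, where 5 against 5 libraries can give 0.00794. The shares come from reads divided among overlapping transcripts.

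**Figure D3:**
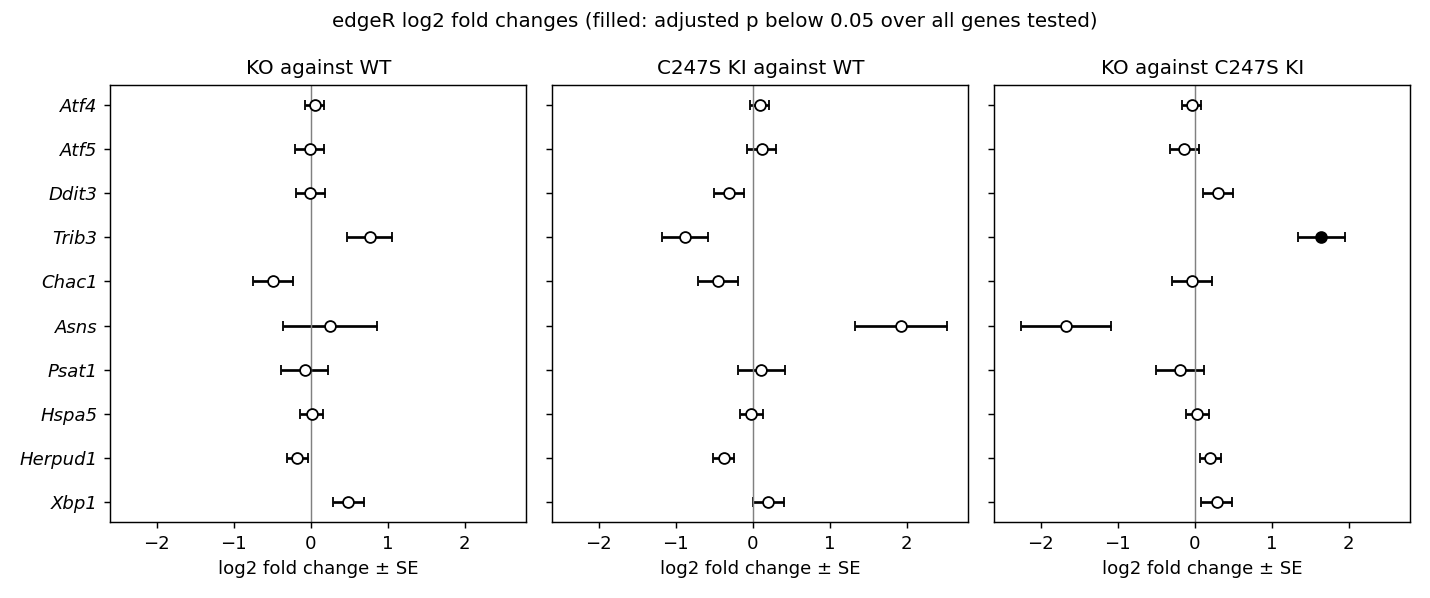
Log2 fold change ± SE from edgeR (horizontal) of the 10 genes (rows) in KO against WT, C247S KI against WT and KO against C247S KI, with filled points past an adjusted p of 0.05. The filled point is Trib3 in KO against C247S KI at 1.64, and the widest error bars are those of Asns.

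In KO against WT 0 of the 10 genes passed, where 6.75% of all genes tested passed, 2.56% higher and 4.19% lower. At an unadjusted p under 0.05 there were 2 members, against 23.3% of all genes, and DESeq2 and limma-voom each also called 0. In C247S KI against WT 0 passed in all 3 tools, against 0.0862% of all genes, and 3 members had an unadjusted p under 0.05, against 9.84% of all genes.

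In KO against C247S KI 1 of 10 passed and was higher in KO, where 10.3% of all genes passed, 4.41% higher and 5.85% lower, so the share of members is near the background. An unadjusted p under 0.05 was reached by 2 members, against 27% of all genes, and DESeq2 and limma-voom each called 1. No member had 5 libraries of a group apart from the 5 of another in any comparison, where 9.6% of all genes did in KO against WT, 1.3% in C247S KI against WT and 9.67% in KO against C247S KI. The members' median log2 difference was 0.00542 in KO against WT, 0.0368 in C247S KI against WT and -0.00213 in KO against C247S KI, beside -0.00989, 0.00225 and -0.0289 over all genes. In each comparison 5 members were positive and 5 negative.

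No pair of members was shown to vary together among libraries of the same genotype. Of 45 pairs, tested on deviations from the group means over 15 libraries, 0 passed the adjustment with Pearson's r or Spearman's rho. Atf5 and Hspa5 were closest, with r = 0.819 (permutation p = 0.0015, adjusted p = 0.0675), rho = 0.757 (permutation p = 0.0068, adjusted p = 0.231) and r = 0.650 without the 2 farthest libraries. Ddit3 and Asns had the next lowest p for r, with r = -0.565 (permutation p = 0.0055, adjusted p = 0.123) and rho = -0.518 (permutation p = 0.0303, adjusted p = 0.341). Trib3 and Chac1, both with a CARE match and both known ATF4 targets, had r = -0.653 (permutation p = 0.0327, adjusted p = 0.491) and rho = -0.693 (permutation p = 0.0154, adjusted p = 0.231). Their r was -0.673 without the 2 farthest libraries.

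Among all other genes tested, those whose within-group deviations were most like a member's were read as a description only. Each was picked for the highest r among all these genes over 15 libraries, so a high r is partly due to the picking, and none was tested. Hspa5 was most like Srprb, a subunit of the signal recognition particle receptor (r = 0.95, n = 15), and Manf, an ER-resident secreted factor (r = 0.924). Herpud1 was most like Klf15 (r = 0.933) and Ptgds (r = 0.88), and Atf5 like Inhbc (r = 0.893) and Mad1l1 (r = 0.865). Xbp1 was most like Nle1 (r = 0.881) and Nos1ap (r = 0.84), and Atf4 like Arl2 (r = 0.835) and Sp8 (r = 0.812).

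Trib3 was most like Slc7a4 (r = 0.888) and Manbal (r = 0.887), and Chac1 like Pgam2 (r = 0.816) and Ccdc126 (r = 0.792). Asns was most like Crlf2 (r = 0.928) and Smyd1 (r = 0.918), both of which also reached their highest CPM, 13.8 and 13.2, in C247S KI. Psat1 was most like Anln (r = 0.96) and Trim16 (r = 0.912), and Ddit3 like Sdk2 (r = 0.812) and Gpr12 (r = 0.805). Many of the genes named here were low. Slc7a4, Sp8, Sdk2, Gpr12, Pgam2, Ptgds and Trim16 stayed at or below 1.63 CPM in every library.

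Around the 10 genes, 122 of 123 genes in 8 lists of the same pathways were tested, and every one that passed in edgeR was lower in KO. In KO against WT 6 fell and 0 rose, so that 4.92% fell, beside 4.19% of all genes. In KO against C247S KI 9 fell and 0 rose, so that 7.38% fell, beside 5.85% of all genes. In C247S KI against WT 0 passed in edgeR, DESeq2 or limma-voom, with 4 at an unadjusted p under 0.05. In KO against WT DESeq2 called 11 and limma-voom 3, all lower. DESeq2 called 12 in KO against C247S KI, of which 2 were higher and 10 lower, and limma-voom called 9, all lower. The shares that fell were a little above those of all genes. In either direction 4.92% of the list genes passed in KO against WT, beside 6.75% of all genes. In KO against C247S KI 7.38% passed, beside 10.3% of all genes. These lists were thus called about as often as other genes or less, and the differences were not tested.

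Among transcription and signalling genes downstream of ATF4, 1 of 13 fell in KO against WT. It was Atf3, a stress-induced repressor, with 1.56, 4.11, 0.918, 1.35 and 2.13 CPM in KO and 1.97, 24.4, 6.37, 7.97 and 23.6 CPM in WT. WT 1 lay within the KO range and the other 4 WT libraries were above it, and the log2 difference was -2.67 (SE 0.65, edgeR adjusted p = 0.0206), with adjusted p = 0.0560 without KO 3, 0.052 without KO 4 and 0.052 without WT 2. Against C247S KI, 1 of 13 fell in KO. It was Fgf21, a hepatokine of fasting and stress, with 0.806, 2.36, 1.42, 1.45 and 1.78 CPM in KO and 6.57, 2.74, 3.25, 11.2 and 2.09 CPM in C247S KI (log2 -1.71, SE 0.40, edgeR adjusted p = 0.0131), where C247S KI 5 lay within the KO range. In C247S KI against WT Atf3 had the lowest p of the list at -1.32 (adjusted p = 0.497).

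The amino acid and one-carbon targets of ATF4 held the calls with the smallest p. Slc1a4, a transporter of neutral amino acids, had 1.92, 2.17, 1.97, 2.28 and 1.73 CPM in KO, 5.53, 9.77, 10.5, 4.16 and 5.97 CPM in C247S KI, and 3.98, 5.55, 6.85, 5.66 and 3.51 CPM in WT. All KO libraries were below all others. Relative to WT it fell by 1.34 (log2, SE 0.25, edgeR adjusted p = 0.0052) in KO, and relative to C247S KI by 1.83 (SE 0.25, adjusted p = 0.000335), and both calls were kept in every alternative that was run. Mthfd1l, the mitochondrial formate-producing enzyme of one-carbon metabolism, averaged 1.77 ± 0.610 CPM in KO, 5.0 ± 1.6 in C247S KI and 5.34 ± 1.41 in WT (SD, n = 5), and fell by 1.59 against WT (SE 0.26, adjusted p = 0.00237) and by 1.5 against C247S KI (SE 0.26, adjusted p = 0.002).

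In KO against C247S KI the mitochondrial PEP carboxykinase gene Pck2 also fell, with 3.58 ± 0.396 CPM in KO and 6.94 ± 0.374 in C247S KI (log2 -0.95, SE 0.18, adjusted p = 0.0035), as did the glutamine transporter gene Slc1a5 (log2 -0.87, adjusted p = 0.0237). In all, 2 of 20 genes of this list fell in KO against WT, 0 passed in C247S KI against WT, where Pck2 had the lowest p at 0.52 (adjusted p = 0.368), and 4 of 20 fell in KO against C247S KI. Of all genes, 4.19% fell in KO against WT and 5.85% in KO against C247S KI. The list's median log2 difference was -0.326 in KO against WT and -0.236 in KO against C247S KI. Asns and Psat1, the members of the same branch, did not pass in either comparison. In KO against C247S KI both were negative, at -1.67 for Asns (-0.63 without C247S KI 3) and -0.19 for Psat1. In KO against WT Asns was at 0.25 and Psat1 at -0.08.

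Other groups had single calls. Ero1l, an ER oxidase for disulfide bonds, was the only one of 17 ER chaperones and oxidoreductases to pass, with 15.6 ± 1.42 CPM in KO, 23.8 ± 3.58 in C247S KI and 21.2 ± 3.05 in WT. It fell by 0.44 in KO against WT (adjusted p = 0.0418) and by 0.61 in KO against C247S KI (adjusted p = 0.0052). Clpx, a subunit of the mitochondrial ClpXP protease, was the only one of 8 mitochondrial chaperones and proteases to pass and fell by 0.83 and 0.85 in those comparisons (adjusted p = 0.0227 and 0.0150).

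Of 16 genes for translocation and transport, Ssr3 fell by 0.46 in KO against WT (adjusted p = 0.0463) and Sec24d by 0.55 in KO against C247S KI (adjusted p = 0.0357). Of 18 sensors and eIF2 regulators, Atf6 fell by 0.42 in KO against C247S KI (adjusted p = 0.0281), and Eif2ak3, which encodes PERK, was at -0.68 in KO against WT without passing (adjusted p = 0.0716). No gene of 13 tRNA synthetases and tRNA export factors, and none of 17 ER-associated degradation genes, passed in any comparison. Their lowest p-values belonged to Cars, Iars and Tars among the synthetases, at -0.29, 0.30 and -0.26, and to Edem1 in both KO comparisons, at -0.28 and -0.26.

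**Figure D4:**
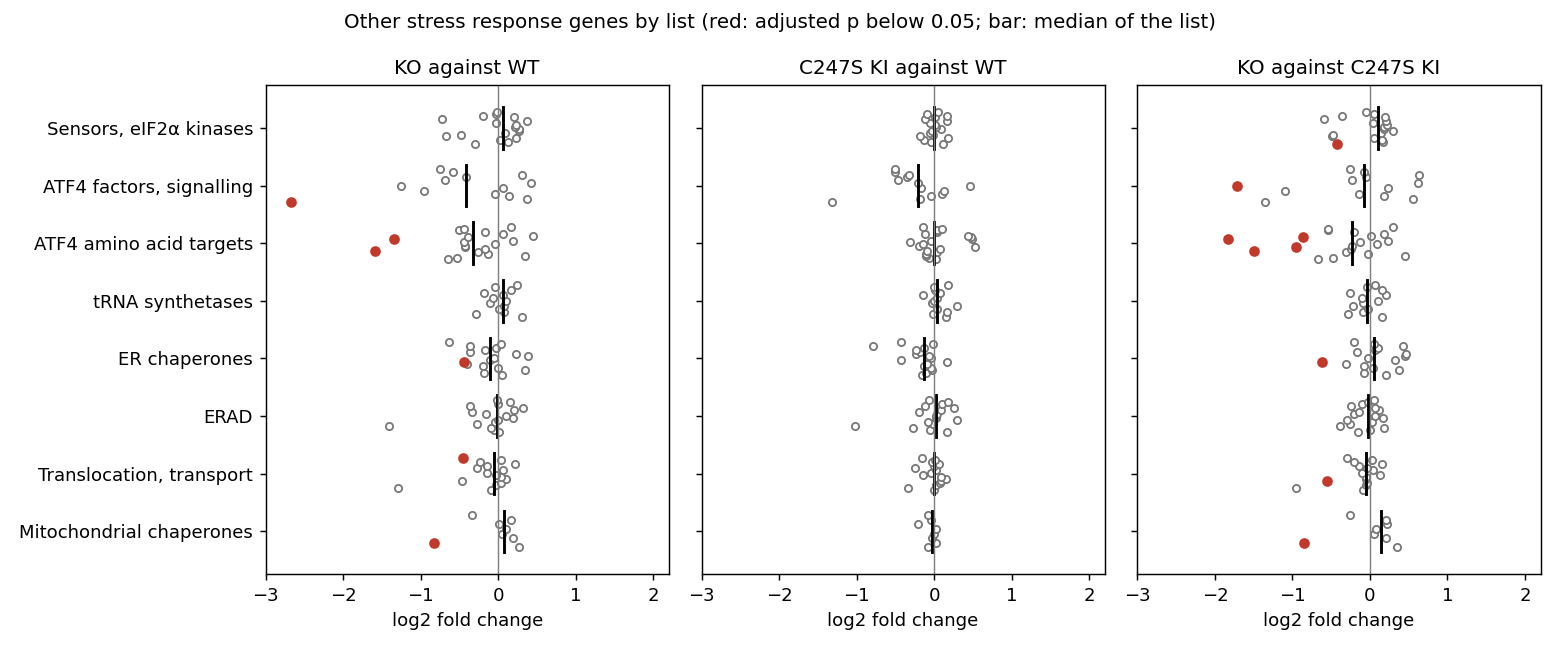
Log2 fold change (horizontal) of the 122 other pathway genes in 8 lists (rows) for the 3 comparisons, with red points past an edgeR adjusted p of 0.05 and a black bar at each list's median. The 6 red points of KO against WT and the 9 of KO against C247S KI all lie left of 0, and C247S KI against WT has none.

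These counts depended on single libraries. In KO against WT 3 genes were called without KO 2, KO 3, KO 5 or WT 3, and 2 without KO 4. Against C247S KI, 5 were called in KO without KO 2 and 18 without C247S KI 3, of which 7 were higher and 11 lower. With the clock index in the fit 1 gene, Slc1a4, was left in each of these comparisons. Leaving out 1 library at a time ended the calls of Atf3, Ero1l, Ssr3 and Clpx in KO against WT at least once. The same held for Atf6, Sec24d, Slc1a5 and Clpx in KO against C247S KI. The highest edgeR adjusted p lay between 0.0509 for Clpx in KO against C247S KI and 0.124 for Ero1l in KO against WT.

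Of 48 tested markers of 10 cell type lists, 6 were lower and 0 higher in each of the comparisons of KO with WT and KO with C247S KI (12.5%, beside 4.19% and 5.85% of all genes lower). In either direction 6.75% and 10.3% of all genes passed, and the difference of the markers from these shares was not tested. In liver RNA fewer cells of a type and less RNA per cell cannot be told apart. The summed CPM of the 9 hepatocyte markers was 60910 to 84840 in KO, 85220 to 135100 in C247S KI and 98760 to 117800 in WT. Past the threshold, 2 of 9 were lower in KO against C247S KI and 1 of 9 in KO against WT. The log2 differences of 2 and 3 of the 9, in that order, were positive. The 5 cholangiocyte markers summed to 25.5 to 38.0 CPM in KO, 46.5 to 121 in C247S KI and 34.7 to 53.3 in WT, and 2 of 5 were lower in KO against C247S KI. In C247S KI against WT all 5 had positive log2 differences (median 0.796), 3 of them with an edgeR unadjusted p under 0.05, and 0 passed. The 5 adipocyte markers summed to 1.26 to 3.52 CPM in KO, 7.87 to 48.6 in C247S KI and 3.57 to 25.5 in WT, and the only tested one was lower in KO in both comparisons.

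The 7 stellate cell markers summed to 155 to 445 CPM in KO, 343 to 536 in C247S KI and 483 to 554 in WT, with 1 lower in KO against WT. The 6 endothelial markers summed to 112 to 177 CPM in KO, 114 to 144 in C247S KI and 102 to 226 in WT. Past the threshold, 2 were lower in KO against WT and 1 in KO against C247S KI. In each of these comparisons the log2 differences of 3 endothelial markers were positive and of 3 negative. The 5 lymphocyte markers summed to 1.78 to 3.68, 3.25 to 4.96 and 2.08 to 9.16 CPM in the same order. Of the 4 tested, 1 was lower in KO against WT. Macrophage markers summed to 85.7 to 322 CPM in KO, 65.6 to 171 in C247S KI and 132 to 361 in WT, neutrophil markers to 16.5 to 182, 107 to 190 and 58.2 to 218, and neither list had a call. All 8 macrophage markers had negative log2 differences in C247S KI against WT (median -0.788). Of these, 5 had an edgeR unadjusted p under 0.05, beside 9.84% of all genes. All 8 were also negative in KO against WT (median -0.347) and positive in KO against C247S KI (median 0.429).

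Plasma cell markers, of a cell type rich in Xbp1, summed to at most 5.29 CPM in KO and 4.86 in C247S KI. In WT they were at 29.5 CPM in WT 1 and between 2.2 and 5.83 CPM in the other 4 libraries. Pancreatic acinar markers stayed at or below 1.05 CPM in KO, 0.741 in C247S KI and 0.621 in WT, with Prss2 at 0 in every library. No marker of the 10 lists passed in C247S KI against WT. The part of these markers in the results above was not tested.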

How the data were processed

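The authors deposited estimated counts per transcript as whole numbers. Per the submitters' processing notes, Trimmomatic 0.39 and kallisto 0.50.1 were used with mm10, and DESeq2 is named. Per the labels, total RNA was extracted with RNeasy kits. The transcript set and strand setting are not given in the sources used here, so overlapping and antisense genes may share reads.

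Transcript IDs without version were matched to GENCODE M21 (114331 of 115911, 98.64%), and counts were summed per gene. Left out were 1580 transcripts without a match, with 0.366 to 0.459% of each library. Genes were filtered with filterByExpr (minimum count 10, total 15) and tested by edgeR's quasi-likelihood method (version 4.0.16, R 4.3.3) after TMM scaling, with all 15 libraries in 1 fit. DESeq2 1.42.0, limma-voom (limma 3.58.1) and other settings were alternatives. The steps were tested on simulated data. Correlations used up to 100000 permutations of libraries within groups, and exact tests enumerated all splits. All 30 pairs of libraries within groups differed beyond sampling noise, with a chi-square of 22.37 to 361.1 for each degree of freedom.

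All 10 members were named, then up to 4 called genes of each pathway list by lowest p, or the lowest-p gene where none passed, of which some are given, and the 2 genes most like each member. The members, lists, clock index and set of doubted libraries were chosen with earlier results of these data known. Precision is limited by 5 libraries per group and, for low genes, by their counts.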

Additional observations from a re-analysis of the deposited data

Results flagged for a closer look

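In each group the gap of the highest or lowest library to its neighbour was divided by the group's range, on the log2 CPM and on the linear CPM scale, and set against a critical value of 0.71 for 5 samples. Of 63 groups (21 genes in 3 genotypes) 5 passed on either scale, where chance flags about 1 in 20 on each scale. No library passed on both.

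Psat1 in KO 5 was at 0.356 CPM, from 7 estimated counts, below the other 4 KO libraries at 1.11 to 1.47 CPM, with a ratio of 0.79 on the log2 scale and 0.677 on the linear scale. Without KO 5 the log2 difference of Psat1 was 0.16 in KO against WT and 0.04 in KO against C247S KI, with no call either way. The other 4 passed on the linear scale and not on the log2 scale. Asns in C247S KI 3 was at 26.6 CPM (linear ratio 0.736) and in WT 1 at 4.81 CPM, where the linear ratio lay just above the critical value before rounding. Atf4 in KO 2 was at 72.7 CPM (linear ratio 0.719), and Atf5 in WT 2 was at 409 CPM (linear ratio 0.72).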

How the results depend on the processing

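The Trib3 call of KO against C247S KI was kept in all alternatives except the clock index covariate, with which 0 members passed. Without WT 1, C247S KI 3 and C247S KI 5, which an earlier analysis set apart, it was 1.54 (edgeR adjusted p = 0.0211). Members called in KO against C247S KI ranged from 1 to 2 when a library was left out, the added one being Asns without C247S KI 5. The cause of these shifts was not tested.

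Genes called in KO against WT (939) were 1505 with DESeq2, 167 with the clock index, 1542 without those 3 libraries and 521 to 1259 with a library left out. In C247S KI against WT (12) they were 65 with DESeq2, 20 without a count filter, 6 with only the 2 groups, 24 with the clock index and 4 to 24 with a library left out. In KO against C247S KI (1427) they were 69 with the clock index and 784 to 2280 with a library left out, the highest without C247S KI 3. Pathway genes called in KO against WT (6) were 11 with DESeq2, 3 with limma-voom, 1 with the clock index, 17 without the 3 libraries and 2 to 8 with a library left out, in C247S KI against WT 0 to 1, and in KO against C247S KI (9) 1 with the clock index and 5 to 18 with a library left out. Ssr3 and Ero1l in KO against WT and Sec24d and Atf6 in KO against C247S KI lost their calls in 10 to 17 of 25 alternatives.

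The correlations of same-numbered libraries ran from -0.141 to 0.381. They were not set against differently numbered libraries, so whether the replicate numbers pair libraries was not tested. With a replicate block 1046, 6 and 1594 genes passed in KO against WT, C247S KI against WT and KO against C247S KI, and members called stayed at 0, 0 and 1.

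Some differences changed sign. Those of members were not past the threshold in the edgeR fit with all libraries or after the change, and that of Clpx was past it in that fit (-0.85) and not after the change. With the clock index in KO against WT, Trib3 was -0.0173, Asns -0.00904 and Hspa5 -0.12, in C247S KI against WT Atf4 -0.0733 and Hspa5 0.0832, and in KO against C247S KI Atf4 0.37, Chac1 0.58, Hspa5 -0.20 and Clpx 0.10. Atf5 in KO against WT was 0.00527 with limma-voom, Ddit3 0.00514 without a filter, and Psat1 in C247S KI against WT -0.0153 without the 3 libraries. With a library left out, KO against WT ranged from -0.0737 to 0.13 for Atf5, -0.11 to 0.12 for Ddit3, -0.0281 to 0.11 for Hspa5 and -0.18 to 0.16 for Psat1. C247S KI against WT ranged from -0.0294 to 0.27 for Atf5, -0.11 to 0.0694 for Hspa5 and -0.000392 to 0.23 for Psat1. KO against C247S KI ranged from -0.10 to 0.0578 for Atf4, -0.26 to 0.0169 for Atf5, -0.33 to 0.12 for Chac1, -0.0487 to 0.13 for Hspa5 and -0.30 to 0.0396 for Psat1.

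Xbp1 transcript shares, in percentage points with a library left out, ranged for Xbp1-201 from -1.70 to 1.80 in KO against WT, -6.20 to -1.81 in C247S KI against WT and 2.24 to 5.87 in KO against C247S KI, for Xbp1-203 from -0.566 to 0.404 in KO against WT and -0.00613 to 1.19 in C247S KI against WT, and for Xbp1-204 from -1.31 to 0.522 in KO against WT, 1.2 to 2.90 in C247S KI against WT and -3.38 to -1.51 in KO against C247S KI. Without WT 5 or KO 1 some of these had an exact permutation p down to 0.0159, unadjusted.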
